A study of Mus musculus with 6 samples.

Results

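The genes described here are 46 that fold, modify, export and crosslink secreted proteins: endoplasmic reticulum (ER) chaperones, ER-associated degradation factors, collagen hydroxylases, lysyl oxidases and procollagen export genes. They were taken by symbol from a table of 27734 genes, in which each of the 46 had 1 row. RNA sequencing was done on chondrocytes, the cells that make cartilage, isolated from E18.5 mouse ribs by pronase and overnight collagenase D digestion and collected at once, without culture. The mutant group was 3 libraries from conditional knockout embryos (Jab1flox/flox; Col2a1-Cre), in which Cre recombinase, driven by a Col2a1 promoter active in cartilage cells, removes floxed Jab1. They are set against 3 libraries from wild-type embryos. Strain, sex, and whether libraries came from single or pooled embryos are not given in the labels, so the p-values below measure the spread between libraries, which may be technical. Whether the wild-type embryos carried the floxed allele or Cre is not given either. The comparison asks which of these genes differ in level once Jab1 is removed from cartilage cells.

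Cartilage matrix is mostly secreted protein, and a chondrocyte passes large amounts of procollagen through its ER. Procollagen chains enter through the Sec61 channel and are hydroxylated on proline and lysine. They are held by the collagen chaperone Hsp47 while they form a triple helix, and leave in large COPII-coated carriers. Outside the cell, lysyl oxidases crosslink the fibrils. General ER chaperones fold the other secreted proteins, and ER-associated degradation removes those that fail. When unfolded protein accumulates, the unfolded protein response raises chaperone genes, many of them through a promoter motif called the ER stress element.

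Levels are in FPKM, a unit corrected for gene length and library size, so they can be compared between genes. Libraries are named by the number in their column. The title of wild-type column 0 gives day 30 of the month, and all other titles give day 24. What this date stands for is not given. The library columns held 571180 to 631534 FPKM in total, of which these 46 genes made up 1.49 to 1.83%. Cops5, which encodes Jab1, measured 17.0, 18.01 and 17.2 FPKM in mutant columns 0, 1 and 2, against 42.3, 39.8 and 40.1 FPKM in wild-type columns 0, 1 and 2. Of 9 chondrocyte markers 8 were measured, and their summed level was 4510 to 7890 FPKM in mutant and 6920 to 7893 FPKM in wild-type libraries. Of these markers Matn3 and Comp fell (limma adjusted p = 0.045 and 0.024), and Sox9 and Lect1 measured lower in every mutant library without passing. The defining marker Col2a1 was not analysed here. The 4 Y-linked genes examined summed to 14.6 to 82.8 FPKM in mutant libraries and 0.0281 to 0.639 FPKM in wild-type libraries. Xist measured 37.3, 0.0176 and 0.0244 FPKM in mutant columns and 63.1, 64.6 and 65.9 FPKM in wild-type columns 0, 1 and 2. Sex and genotype therefore cannot be told apart, and mutant column 0, with both Xist and Y-linked RNA, stood apart from the other mutant libraries. All 5 tested erythroid markers and both tested granulocyte markers were lower in mutant libraries. The erythroid list summed to 14.9 to 49.4 FPKM in mutant and 196 to 221 FPKM in wild-type libraries, and the granulocyte list to 0.848 to 6.58 FPKM in mutant and 65.2 to 186 FPKM in wild-type libraries. The skeletal muscle list summed to 48.8 to 71.4 FPKM in mutant and 137 to 168 FPKM in wild-type libraries. Of its 3 tested markers 1, Tnnt3, fell (limma adjusted p = 0.017). Tnnt3 made up most of that sum, averaging 51.8 FPKM in mutant and 141 FPKM in wild-type libraries. For Acta1, Myh3, Myod1, Myog and Ckm the groups overlapped. The part of the erythroid, granulocyte and muscle lists in the results below was not tested. In such bulk samples, fewer cells of a type and less RNA per cell cannot be told apart.

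The genes that rose in mutant chondrocytes were the chaperones and co-chaperones Dnajc3, Manf and Canx and the disulfide isomerase Pdia3. Those that fell were the degradation factor Edem2 and the lysyl oxidases Loxl1 and Loxl2. No member of the export, procollagen chaperone, prolyl 4-hydroxylase or lysyl hydroxylase groups passed. Of the 46 members, 45 had a mean of at least 1 FPKM and were tested, and Bhlha15 was not. The words rose and fell are kept for genes with a limma adjusted p under 0.05 over all 14012 genes tested. On that threshold 4 members rose (Dnajc3, Manf, Canx and Pdia3), 3 fell (Edem2, Loxl1 and Loxl2) and 38 did not pass. Together they are 15.6% of the tested members, beside 6.07% of all genes tested in either direction. The 4 that rose are 8.89% of the members, beside 3.48% of all genes tested, and the 3 that fell are 6.67%, beside 2.59% of all genes tested. Groups did not overlap, with every mutant library above every wild-type library, for 13 members (28.9%, beside 16.3% of all genes). They did not overlap in the other direction for 8 members (17.8%, beside 15.9% of all genes). An unadjusted limma p under 0.05 was reached by 13 members with the mutant higher and 9 with it lower, beside 24.7% of all genes in either direction. The median log2 fold change, mutant minus wild type on the log2(FPKM + 1) scale, was -0.019 over the members and -0.0039 over all genes tested. With the summed log2(FPKM + 1) of the 4 Y-linked genes in the model these medians were 0.32 and 0.024.

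The 7 calls rest on all 6 libraries. Without mutant column 0, Dnajc3 and Manf still rose and no member fell. Leaving out any 1 of the other 5 libraries left no member past the threshold. All 7 kept their direction in each of the 16 alternative fits. When the summed log2(FPKM + 1) of the 4 Y-linked genes was added to the model, none of the 7 passed and Calr and Loxl3 did. In that fit 14 other members turned direction, among them Serpinh1, Fkbp10, Crtap and Ppib. Y-linked FPKM summed to 14.6, 82.8 and 71.7 in mutant columns 0, 1 and 2, and to 0.639 or less in wild-type columns. Within groups the covariate therefore mainly sets mutant column 0 against the other mutant libraries. The fit cannot separate sex from other traits of that library. Of the 45 tested members, 22 (48.9%) were highest of all 6 libraries in mutant column 0, as were 24.2% of all genes tested. In wild-type column 0, with another date in its title, 10 members (22.2%) were highest, as were 16.7% of all genes tested.

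**Figure D1:**
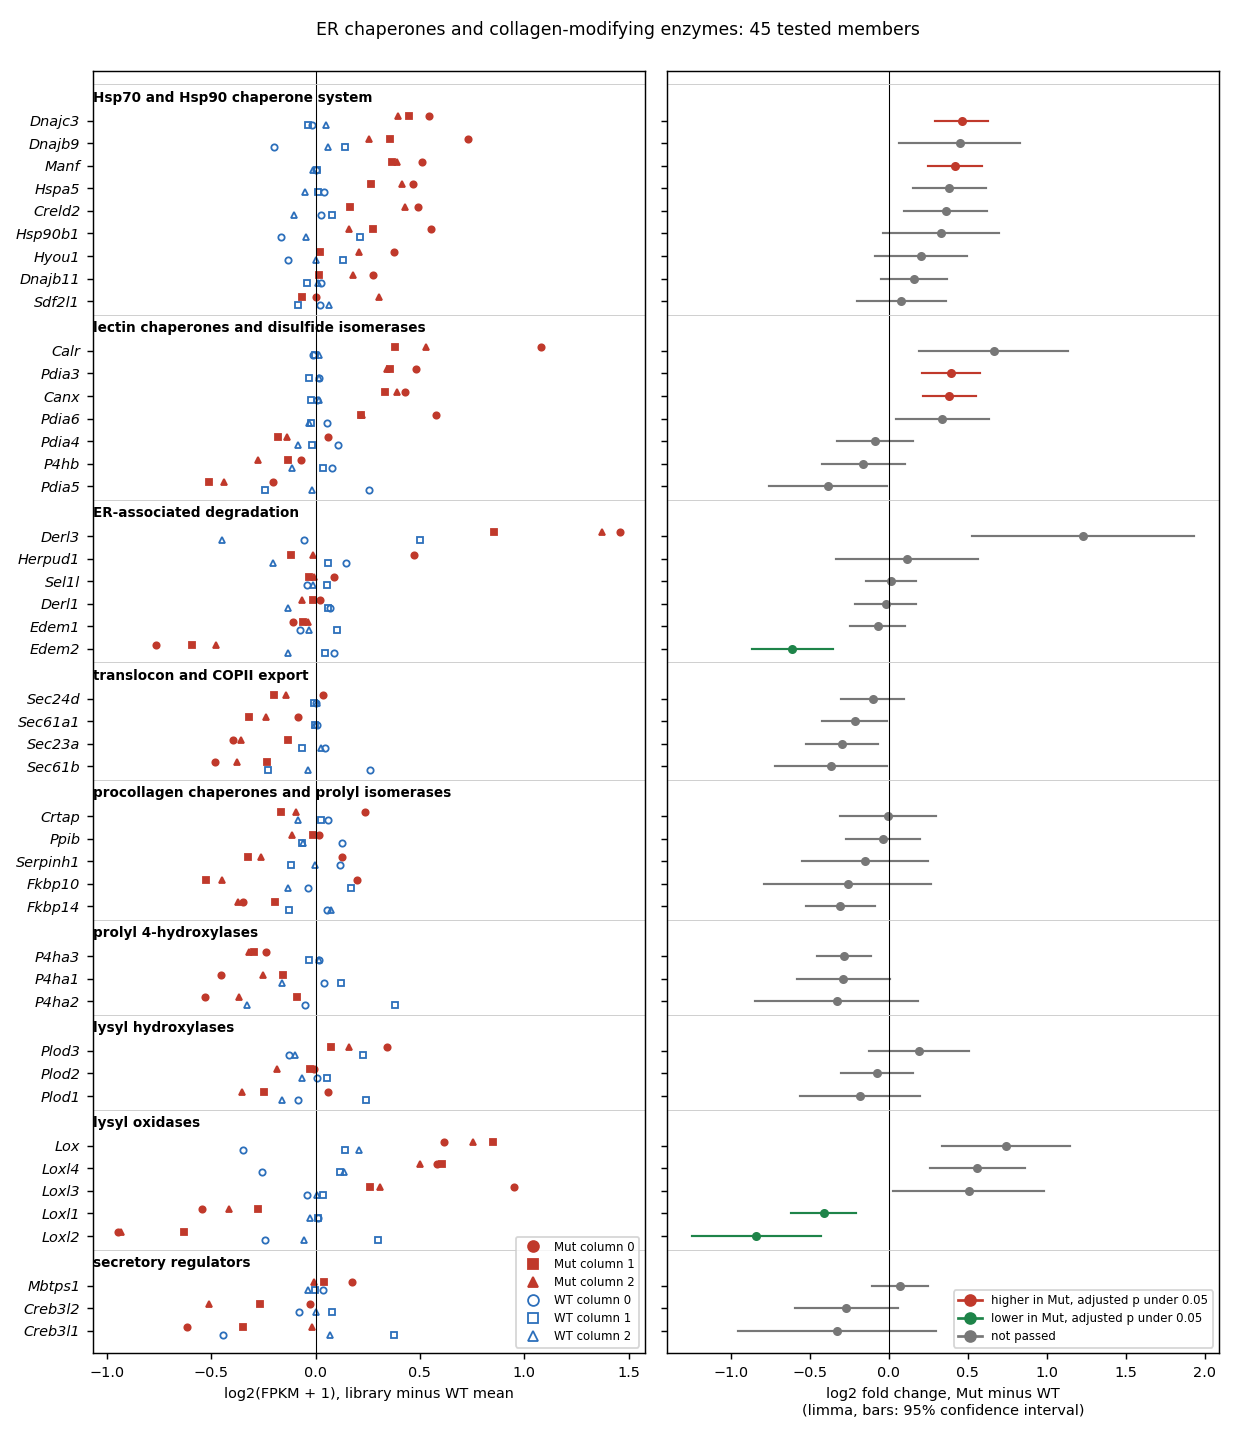
The 45 tested members by role. Left, log2(FPKM + 1) of each library minus the wild-type mean, with filled red symbols for the 3 mutant and open blue symbols for the 3 wild-type libraries; right, the limma log2 fold change (mutant minus wild type) with its 95% confidence interval. The fold changes of all 9 members of the Hsp70 and Hsp90 system lie right of 0, and those of all members of translocon and export, procollagen chaperones and prolyl 4-hydroxylases lie left of it, several by far less than their interval.

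In the Hsp70 and Hsp90 chaperone system all 9 members had positive log2 fold changes (0.08 to 0.46, median 0.36), as had 6926 of all 14012 genes tested. Of the 9 members 2 rose (22.2%, beside 3.48% of all genes tested). For 5 (55.6%, beside 16.3% of all genes) every mutant library was above every wild-type library. Dnajc3 (chromosome 14, 118937976 to 118981697, plus strand, mm10) encodes the ER co-chaperone p58IPK, which works with BiP. It measured 61.8, 57.7 and 55.6 FPKM in mutant columns 0, 1 and 2, against 41.6, 41.0 and 43.6 FPKM in wild-type columns 0, 1 and 2. The mutant values were narrowly spread and all lay above the wild-type values. The log2 fold change was 0.46 (SE 0.068, limma adjusted p = 0.024). Manf (chromosome 9, 106838312 to 106891979, minus strand) encodes a secreted ER stress-inducible factor that binds BiP. Its annotated exons overlap those of Rbm15b on the same strand and of Dcaf1 and 4930524O07Rik on the opposite strand. How shared reads were assigned is not stated. Of the other members that passed, Pdia3 overlaps exons of Catsper2 on the opposite strand. Loxl2 overlaps Mir6950 on the same and Gm27177 on the opposite strand. Exons of several members that did not pass, such as Loxl3 with Htra2, overlap other genes too. Levels of Manf were 178, 161 and 164 FPKM in mutant libraries and 125, 126 and 124 FPKM in wild-type libraries. Wild-type libraries thus differed by less than 2 FPKM, and every mutant library was above them. The log2 fold change was 0.42 (SE 0.069, limma adjusted p = 0.031).

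Hspa5, which encodes BiP, the main Hsp70 of the ER and the most abundant member of this system, measured 851, 739.6 and 819 FPKM in mutant libraries, against 633, 619 and 593 FPKM in wild-type libraries. The groups did not overlap, with mean levels of 803 ± 57.3 FPKM in mutant and 615 ± 20.5 FPKM in wild-type libraries (SD, n = 3), but Hspa5 did not pass (log2 fold change 0.38, limma adjusted p = 0.073). Dnajb9, the co-chaperone ERdj4, averaged 21.1 ± 3.94 FPKM in mutant and 15.1 ± 1.94 FPKM in wild-type libraries (limma adjusted p = 0.15). Creld2, a stress-inducible ER protein also known for its induction in mouse chondrodysplasia models, averaged 60.4 ± 7.10 FPKM in mutant and 46.7 ± 3.00 FPKM in wild-type libraries (limma adjusted p = 0.11). Neither of these groups of values overlapped, and neither gene passed. Hsp90b1, which encodes the ER Hsp90 Grp94, averaged 385 ± 54.9 FPKM in mutant and 306 ± 42.1 FPKM in wild-type libraries, and the groups overlapped (log2 fold change 0.33, limma adjusted p = 0.24). The co-chaperone Dnajb11, the nucleotide exchange factor Hyou1 and Sdf2l1, a partner of Dnajb11, also overlapped, with log2 fold changes of 0.16, 0.20 and 0.08. Without mutant column 0 the log2 fold changes were 0.22 for Hsp90b1, 0.099 for Dnajb11 and 0.12 for Hyou1, and without mutant column 2 that of Sdf2l1 turned to -0.03.

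Some members carry the ER stress element, ERSE (CCAAT and CCACG with 9 bases between them), the motif through which ATF6 and XBP1 act together with NF-Y. It was searched on both strands of RefSeq promoter windows of 300 bases (build GRCm38.p6, from 250 bases before to 50 bases after a gene's start). Windows were found for 35 of the 46 members, and 8 held an exact match, beside 0.119% of all 32851 windows. Counted by gene, 15 of the 8814 tested genes with a window held one, these 8 members included. The members were chosen by known role, and many chaperone genes act through this motif. Their share is therefore no result of these data. The members without a window were Derl1, Sec61a1, Lox, Plod2, Manf, Loxl3, Creb3l1, Loxl1, Hyou1, Fkbp10 and Loxl2. The matches are shown so that their spacing and fixed bases can be compared between genes; of the 4 members that rose, Dnajc3 and Canx hold one, Pdia3 does not and Manf has no window. Each is read in the direction of the motif, with the fixed bases in capitals.
Dnajc3: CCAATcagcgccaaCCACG
Canx: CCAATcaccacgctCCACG
Hspa5: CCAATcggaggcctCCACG
Pdia6: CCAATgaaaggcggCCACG
Calr: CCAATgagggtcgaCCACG
Creld2: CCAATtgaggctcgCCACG
Derl3: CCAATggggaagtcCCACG
Hsp90b1: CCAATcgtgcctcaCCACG
Hsp90b1: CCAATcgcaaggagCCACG
Their centres lay 56 to 203 bases upstream of the RefSeq start. The shorter ERSE-II (ATTGG and CCACG with 1 base between them, in 0.0365% of windows) matched in 2 other members.
Dnajb11: ATTGGcCCACG
Herpud1: ATTGGgCCACG
The related element UPRE (TGACGTGG, in 0.676% of windows) matched in Sec23a and Sec24d. No member had matches to several of these motifs, so none overlapped.

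Whole windows are given for the called chaperone genes that have one, and for Hspa5, on the strand of the gene and with ERSE bases in capitals. Pdia3 is a gene that rose without a match.
Dnajc3, chr14:118937682-118937981, plus strand: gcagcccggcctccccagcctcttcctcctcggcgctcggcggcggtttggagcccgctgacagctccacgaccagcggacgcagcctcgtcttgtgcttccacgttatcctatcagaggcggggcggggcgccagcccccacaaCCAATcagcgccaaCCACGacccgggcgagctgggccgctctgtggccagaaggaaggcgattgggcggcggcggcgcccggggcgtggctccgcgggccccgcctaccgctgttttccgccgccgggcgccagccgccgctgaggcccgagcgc
Canx, chr11:50325624-50325923, minus strand: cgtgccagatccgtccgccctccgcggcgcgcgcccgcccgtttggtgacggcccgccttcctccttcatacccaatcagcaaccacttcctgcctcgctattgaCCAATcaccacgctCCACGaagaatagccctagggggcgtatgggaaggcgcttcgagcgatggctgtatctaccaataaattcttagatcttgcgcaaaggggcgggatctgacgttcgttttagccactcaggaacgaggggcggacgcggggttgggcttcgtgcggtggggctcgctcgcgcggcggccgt
Hspa5, chr2:34771840-34772139, plus strand: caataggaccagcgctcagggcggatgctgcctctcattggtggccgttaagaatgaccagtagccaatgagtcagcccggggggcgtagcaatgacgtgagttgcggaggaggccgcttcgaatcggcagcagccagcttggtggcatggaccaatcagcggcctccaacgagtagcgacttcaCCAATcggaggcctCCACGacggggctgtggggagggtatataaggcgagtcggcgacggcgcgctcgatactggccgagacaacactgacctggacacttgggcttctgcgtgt
Pdia3, chr2:121413652-121413951, plus strand: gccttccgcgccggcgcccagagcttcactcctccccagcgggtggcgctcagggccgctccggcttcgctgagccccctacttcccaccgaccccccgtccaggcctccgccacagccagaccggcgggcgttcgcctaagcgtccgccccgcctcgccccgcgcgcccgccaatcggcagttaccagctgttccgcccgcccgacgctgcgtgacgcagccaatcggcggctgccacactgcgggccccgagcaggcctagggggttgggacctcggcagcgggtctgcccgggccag

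All 8 members with an ERSE match had positive log2 fold changes, from 0.33 for Hsp90b1 to 1.23 for Derl3 with a median of 0.38. Of these 8 members 2 (Dnajc3 and Canx) rose, beside 3.48% of all genes tested. Apart from Derl3, the 8 belong to the Hsp70 and Hsp90 system or to the lectin chaperones and disulfide isomerases. The part of role in this pattern was not tested. The 2 members with an ERSE-II match alone measured 0.16 and 0.11. Of the 24 tested members whose window held neither, 7 had positive log2 fold changes and the median was -0.13. Of these 24, 1 rose and 1 fell, beside 3.48% and 2.59% of all genes tested. Outside the members, 7 tested genes had a window with an ERSE. Among these 7 genes 4 had positive log2 fold changes, with a median of 0.13. None rose and 1, Spats2l, fell (log2 fold change -0.57, limma adjusted p = 0.045), beside 3.48% and 2.59% of all genes tested. Syvn1, a further degradation gene among the 7, was lower in every mutant library without passing (log2 fold change -0.47, limma adjusted p = 0.066). A motif match is a description of these letters and says nothing about which factor was bound.

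**Figure D2:**
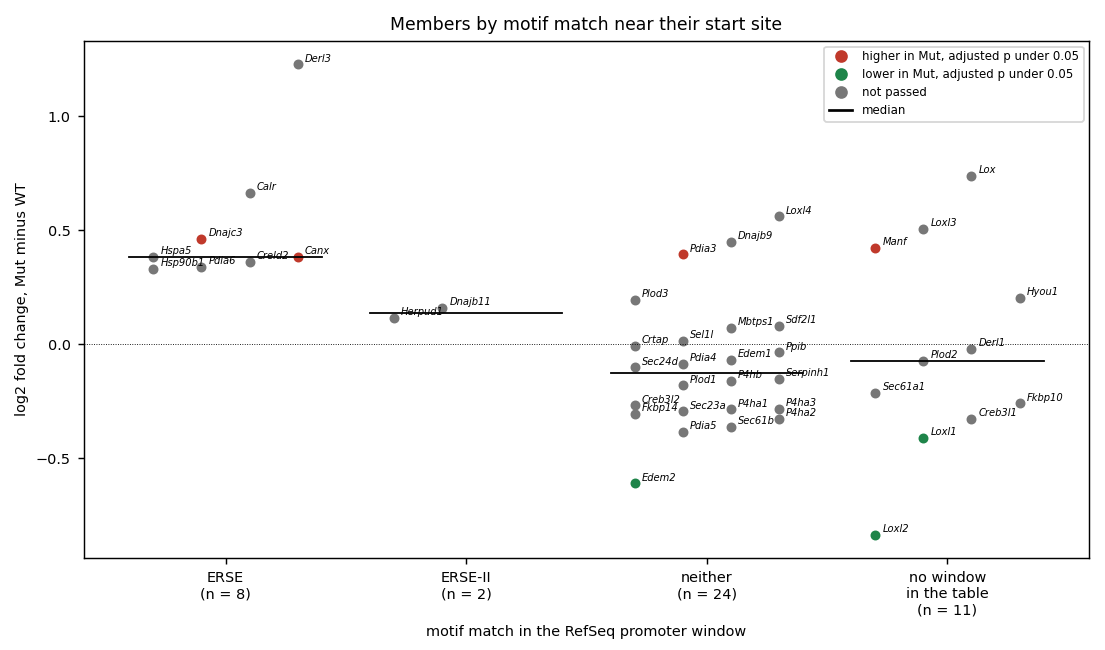
Log2 fold change (mutant minus wild type) of the 45 tested members, grouped by motif match in their promoter window; each point is a gene and black lines are medians. The 8 members with an ERSE lie between 0.33 and 1.23, while the 24 with neither motif spread from -0.61 to 0.56.

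Among the lectin chaperones and protein disulfide isomerases 2 of 7 rose (28.6%, beside 3.48% of all genes tested), none fell and 5 did not pass. Canx (chromosome 11, 50293961 to 50325673, minus strand) encodes calnexin, the membrane chaperone that holds new glycoproteins. It measured 324, 303 and 315 FPKM in mutant columns 0, 1 and 2, against 241, 237 and 244 FPKM in wild-type columns 0, 1 and 2. Both groups were tight and did not overlap. The log2 fold change was 0.38 (SE 0.068, limma adjusted p = 0.038). Pdia3 (chromosome 2, 121413775 to 121438687, plus strand), the disulfide isomerase ERp57 that works with calnexin and calreticulin, measured 342, 313 and 310.3 FPKM in mutant libraries and 247, 239 and 247 FPKM in wild-type libraries. Again every mutant library was above every wild-type library (log2 fold change 0.39, SE 0.075, limma adjusted p = 0.042). Calreticulin, their soluble partner encoded by Calr, measured 855, 526 and 582 FPKM in mutant libraries, against 400.0, 403 and 408 FPKM in wild-type libraries. Mutant column 0 was far above the other mutant libraries, and Calr did not pass (log2 fold change 0.66, limma adjusted p = 0.11). Without mutant column 0 the log2 fold change of Calr was 0.45 (limma adjusted p = 0.057). The genome holds a processed pseudogene of Calr, and how reads shared with it were assigned is not stated.

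Not all disulfide isomerases were higher. Pdia6, which binds BiP clients, averaged 333 ± 49.3 FPKM in mutant and 261 ± 8.92 FPKM in wild-type libraries without overlap (limma adjusted p = 0.16). P4hb encodes the isomerase that is also the beta subunit of collagen prolyl 4-hydroxylase. As the most abundant gene of this group, it measured 995, 953 and 863 FPKM in mutant columns 0, 1 and 2 and 1103, 1073 and 965 FPKM in wild-type columns 0, 1 and 2. The groups overlapped (log2 fold change -0.16, limma adjusted p = 0.41). Pdia4 averaged 239 ± 21.5 FPKM in mutant and 254 ± 17.3 FPKM in wild-type libraries, and Pdia5 22.7 ± 2.70 FPKM in mutant and 30.1 ± 5.42 FPKM in wild-type libraries, both with overlap.

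**Figure D3:**
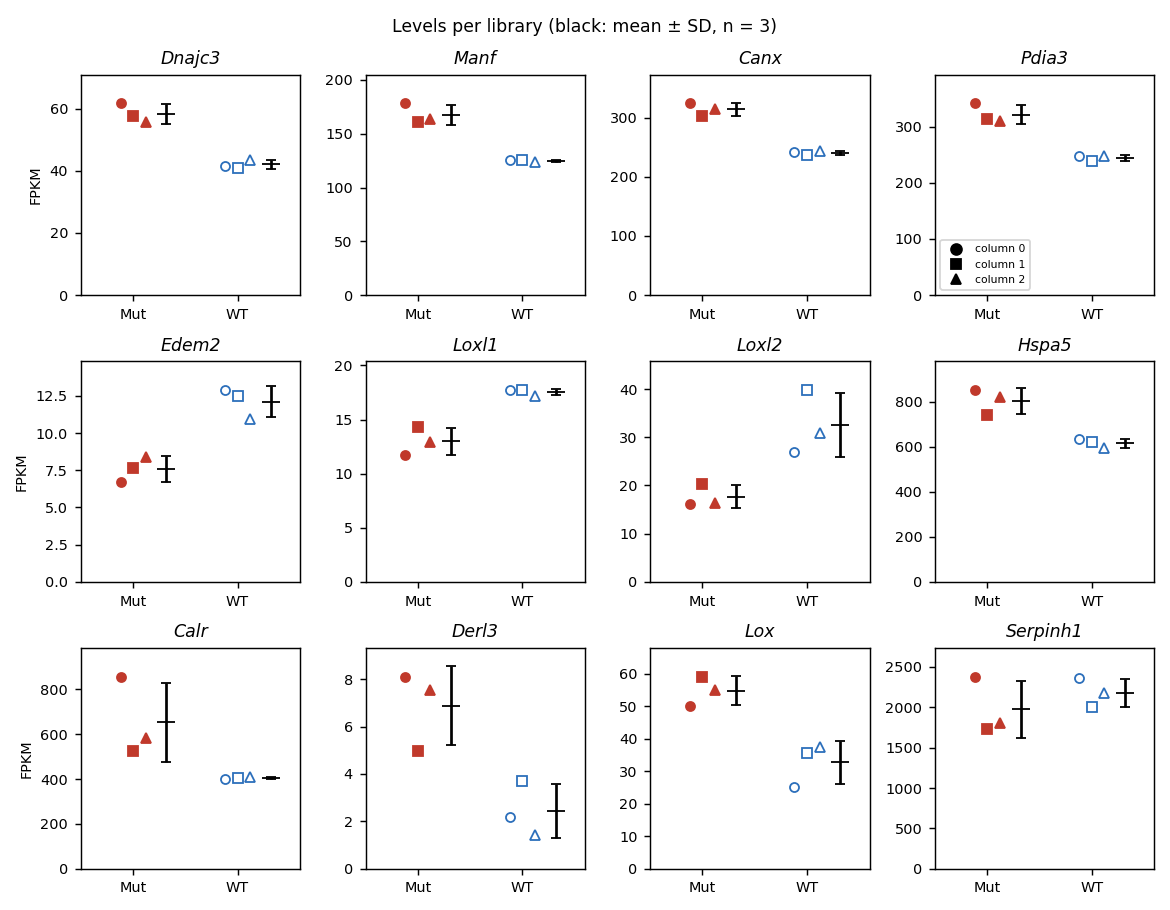
FPKM in each library for the 7 members that rose or fell and for 5 others, with mutant libraries left of wild-type libraries and mean ± SD (n = 3) in black; each vertical axis starts at 0. Mutant column 0 is the highest mutant library for Calr at 855 FPKM and for Serpinh1 at 2375 FPKM.

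Of 6 members of ER-associated degradation 1 fell (16.7%, beside 2.59% of all genes tested), none rose and 5 did not pass. Edem2 (chromosome 2, 155701677 to 155729475, minus strand) encodes a lectin that starts mannose trimming of misfolded glycoproteins. It measured 6.69, 7.68 and 8.40 FPKM in mutant columns 0, 1 and 2, against 12.9, 12.5 and 10.9 FPKM in wild-type columns 0, 1 and 2. All mutant libraries were lower (log2 fold change -0.61, SE 0.10, limma adjusted p = 0.034). Derl3, a derlin of the retrotranslocation channel known to be induced by the unfolded protein response, had the highest log2 fold change of all tested members. It measured 8.09, 4.98 and 7.56 FPKM in mutant libraries, against 2.18, 3.68 and 1.43 FPKM in wild-type libraries. The groups did not overlap, but the spread was wide and Derl3 did not pass (log2 fold change 1.23, SE 0.28, limma adjusted p = 0.065). Derl3 is abundant in plasma cells. The list of 5 B and plasma cell markers summed to 0.445 to 0.761 FPKM in mutant and 0.73 to 2.40 FPKM in wild-type libraries, and 4 of the 5 were under 1 FPKM in every library. Cd79b, Igj and Mzb1 were listed at 0 in at least 1 library.

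Herpud1, an ER membrane protein that organises the degradation complex, was the most abundant gene of this group. It measured 159, 106 and 114 FPKM in mutant columns 0, 1 and 2 and 127, 119 and 99.3 FPKM in wild-type columns 0, 1 and 2. Only mutant column 0 was above the wild-type libraries, and the log2 fold change of 0.11 became -0.06 without it. Edem1, Sel1l, which scaffolds the Hrd1 ligase, and Derl1 overlapped between groups with log2 fold changes of -0.07, 0.02 and -0.02. The 95% confidence interval of Sel1l ran from -0.14 to 0.17.

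The 4 members of the translocon and COPII export all had negative log2 fold changes (-0.36 to -0.10), as had 7086 of all 14012 genes tested. None passed in limma, and 3 had an unadjusted p under 0.05, beside 24.7% of all genes in either direction. In 3 (75%, beside 15.9% of all genes) every mutant library was below every wild-type library. Sec61a1, the pore-forming subunit of the Sec61 channel and the most abundant of the 4, measured 185, 157 and 166 FPKM in mutant columns 0, 1 and 2. In wild-type columns 0, 1 and 2 it measured 197, 196 and 196 FPKM, so all mutant libraries were lower (log2 fold change -0.21, limma adjusted p = 0.19). Sec61b, another channel subunit, averaged 112 ± 9.78 FPKM in mutant and 145 ± 25.4 FPKM in wild-type libraries (limma adjusted p = 0.19). Sec23a, a COPII coat subunit whose loss impairs collagen secretion and skull formation in humans, averaged 133 ± 13.4 FPKM in mutant and 163 ± 6.65 FPKM in wild-type libraries (limma adjusted p = 0.13). Its partner Sec24d, which selects cargo, averaged 81.8 ± 7.20 FPKM in mutant and 87.7 ± 0.447 FPKM in wild-type libraries, with overlapping groups.

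Procollagen chaperones and prolyl isomerases did not pass in either direction, and all 5 had negative log2 fold changes (-0.30 to -0.0062). In limma 1 of the 5, Fkbp14, had an unadjusted p under 0.05, beside 24.7% of all genes in either direction. Serpinh1 encodes Hsp47, the chaperone that binds the procollagen triple helix, and was the most abundant of all 46 members. It measured 2375, 1737 and 1811 FPKM in mutant columns 0, 1 and 2, against 2358, 2003 and 2171 FPKM in wild-type columns 0, 1 and 2. Mutant column 0 lay just above the wild-type range and the other mutant libraries below it (log2 fold change -0.15, 95% confidence interval -0.55 to 0.25, limma adjusted p = 0.60). Fkbp14, a prolyl isomerase of the ER, averaged 69.2 ± 4.78 FPKM in mutant and 85.8 ± 6.61 FPKM in wild-type libraries, and the groups did not overlap (limma adjusted p = 0.11). Fkbp10, the isomerase FKBP65 whose loss causes brittle bones in humans, measured 321, 194 and 204 FPKM in mutant libraries and 272, 314 and 255 FPKM in wild-type libraries. Mutant column 0 was the highest and mutant columns 1 and 2 the lowest of the 6. Crtap and Ppib, which form the prolyl 3-hydroxylation complex with P3h1, averaged 141 ± 21.8 and 534 ± 24.6 FPKM in mutant libraries, against 141 ± 7.42 and 549 ± 42.6 FPKM in wild-type libraries.

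The catalytic alpha subunits of prolyl 4-hydroxylase, which stabilise the collagen helix by hydroxylating proline, were all lower on average without passing. In limma 1 of the 3, P4ha3, had an unadjusted p under 0.05, beside 24.7% of all genes in either direction. P4ha1, the most abundant, measured 239 FPKM in mutant column 0, 294 in column 1 and 275 in column 2, against 337, 356 and 293 FPKM in wild-type columns 0, 1 and 2. The groups overlapped by a single pair of libraries (log2 fold change -0.29, limma adjusted p = 0.21). P4ha2 averaged 116 ± 18.4 FPKM in mutant and 147 ± 37.3 FPKM in wild-type libraries (limma adjusted p = 0.39). P4ha3, the least abundant, measured 4.02, 3.82 and 3.75 FPKM in mutant libraries, against 4.98, 4.80 and 4.99 FPKM in wild-type libraries. Its groups were tight and separate (log2 fold change -0.28, limma adjusted p = 0.073). The makeup of the family hardly moved: P4ha1 held 69.3 ± 1.39% of the summed level in mutant and 68.6 ± 3.29% in wild-type libraries.

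Lysyl hydroxylases, which prepare lysines for crosslinking and sugar attachment, overlapped between groups for all 3 members, and none had an unadjusted limma p under 0.05. Plod2, which hydroxylates the telopeptides and was the most abundant, measured 651, 641 and 576 FPKM in mutant columns 0, 1 and 2 and 658, 679 and 626 FPKM in wild-type columns 0, 1 and 2. Its log2 fold change was -0.07 (95% confidence interval -0.30 to 0.15). Plod1, which acts on the helical domain, averaged 83.4 ± 12.8 FPKM in mutant and 94.6 ± 14.6 FPKM in wild-type libraries. Plod3, which also adds sugars to hydroxylysine, averaged 123 ± 11.8 FPKM in mutant and 107 ± 15.4 FPKM in wild-type libraries.

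Lysyl oxidases were the only role group in which mutant and wild-type libraries separated for every member, 3 with the mutant higher and 2 with it lower, beside 32.2% of all genes in either direction. Loxl2 (chromosome 14, 69609068 to 69695834, plus strand), an oxidase of fibrillar and basement membrane collagens, measured 16.2, 20.4 and 16.4 FPKM in mutant columns 0, 1 and 2. In wild-type columns 0, 1 and 2 it measured 27.0, 39.8 and 30.9 FPKM. Mutant levels averaged 0.542 times the wild-type level (log2 fold change -0.84, SE 0.17, limma adjusted p = 0.045). Loxl1 (chromosome 9, 58287738 to 58313186, minus strand), known for crosslinking elastin, measured 11.7, 14.3 and 12.9 FPKM in mutant libraries, against 17.7, 17.7 and 17.2 FPKM in wild-type libraries. Wild-type libraries were within 1 FPKM of each other and all mutant libraries below them (log2 fold change -0.41, SE 0.083, limma adjusted p = 0.047).

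Lox, the founding collagen and elastin oxidase, measured 50.1, 59.0 and 55.1 FPKM in mutant libraries, against 25.2, 35.7 and 37.5 FPKM in wild-type libraries. The lowest wild-type library was column 0, the one with another date in its title, and without it the log2 fold change of 0.74 (limma adjusted p = 0.059) was 0.57 (limma adjusted p = 0.083). Loxl4 measured 93.1, 94.6 and 87.9 FPKM in mutant libraries and 51.7, 67.2 and 68.2 FPKM in wild-type libraries (log2 fold change 0.56, limma adjusted p = 0.056). Loxl4 did pass under median-of-ratios scaling (limma adjusted p = 0.046), and over its alternatives the adjusted p ranged from 0.044 to 0.39. Loxl3, which is needed for palate and spine development in mice, was the most abundant of the family. It measured 162, 99.95 and 104 FPKM in mutant columns 0, 1 and 2, against 81.0, 85.4 and 83.8 FPKM in wild-type columns 0, 1 and 2. Its log2 fold change of 0.51 (limma adjusted p = 0.18) was 0.28 without mutant column 0 (limma adjusted p = 0.075).

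Summed over the 5 genes, lysyl oxidase levels were 299 ± 30.2 FPKM in mutant and 229 ± 22.9 FPKM in wild-type libraries. Loxl2 held 5.96 ± 1.11% of that sum in mutant and 14.2 ± 1.75% in wild-type libraries, and Loxl1 4.39 ± 0.763% in mutant and 7.73 ± 0.880% in wild-type libraries. The shares of both were lower in each mutant library than in any wild-type library. Fibroblasts also express these enzymes. Of 7 fibroblast and perichondrium markers 6 were tested, of which 2 fell (Dcn and Lum) and none rose. Col1a1 averaged 47.4 FPKM in mutant and 124 FPKM in wild-type libraries, with overlap (log2 fold change -1.35, limma adjusted p = 0.24). Others of the list ran the other way without a call: Pdgfra and the untested Thy1 measured higher in every mutant library than in any wild-type library. Col3a1 and Postn averaged 129 and 135 FPKM in mutant and 80.1 and 63.7 FPKM in wild-type libraries, with overlap. That list summed to 798 to 1322 FPKM in mutant and 1339 to 1456 FPKM in wild-type libraries, no marker was listed at 0, and its part in the lysyl oxidase levels was not tested.

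**Figure D4:**
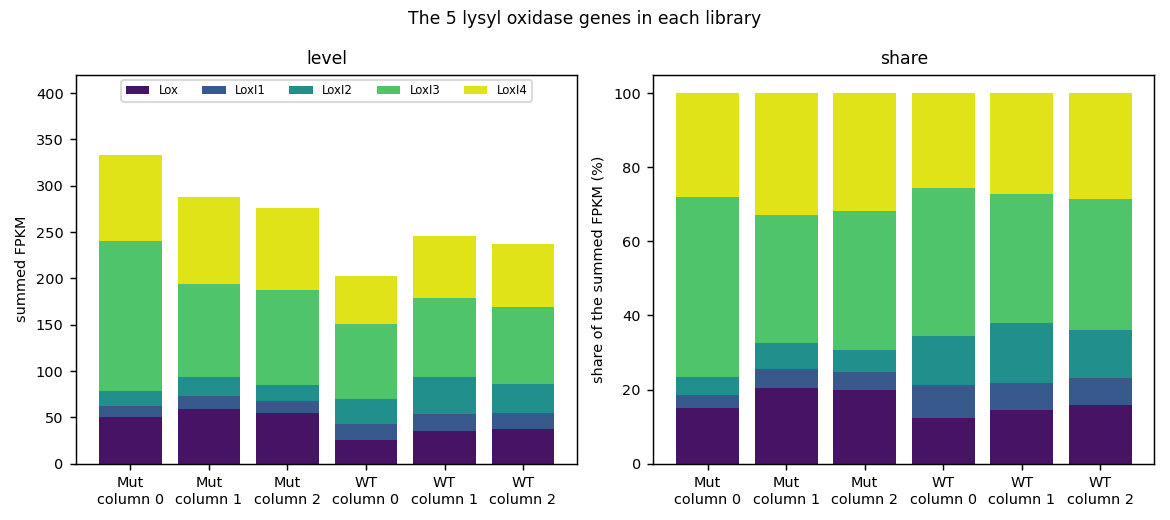
Summed FPKM of the 5 lysyl oxidase genes in each library (left) and the share of each gene in that sum (right), with the 3 mutant libraries left of the 3 wild-type libraries. The sum runs from 276 to 333 FPKM in mutant and 203 to 246 FPKM in wild-type libraries, and the share of Loxl2 from 4.86 to 7.08% in mutant and 13.0 to 16.2% in wild-type libraries.

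Regulators of the secretory machinery did not pass, and none of the 3 tested had an unadjusted limma p under 0.05. Mbtps1, the Golgi protease that cleaves ATF6 and the CREB3L factors and the most abundant regulator here, measured 65.3, 59.3 and 57.4 FPKM in mutant columns 0, 1 and 2 and 59.2, 57.6 and 56.3 FPKM in wild-type columns 0, 1 and 2, with overlap. Creb3l2, the factor BBF2H7 that activates Sec23a in mouse chondrocytes, averaged 32.2 ± 5.53 FPKM in mutant and 38.6 ± 2.12 FPKM in wild-type libraries (log2 fold change -0.27, limma adjusted p = 0.28). Creb3l1, its relative OASIS known from mouse osteoblasts, averaged 3.37 ± 0.911 FPKM in mutant and 4.56 ± 1.53 FPKM in wild-type libraries. Bhlha15, the factor Mist1 of professional secretory cells, was below the filter and measured 0.0800 ± 0.0630 FPKM in mutant and 0.116 ± 0.0222 FPKM in wild-type libraries.

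**Figure D5:**
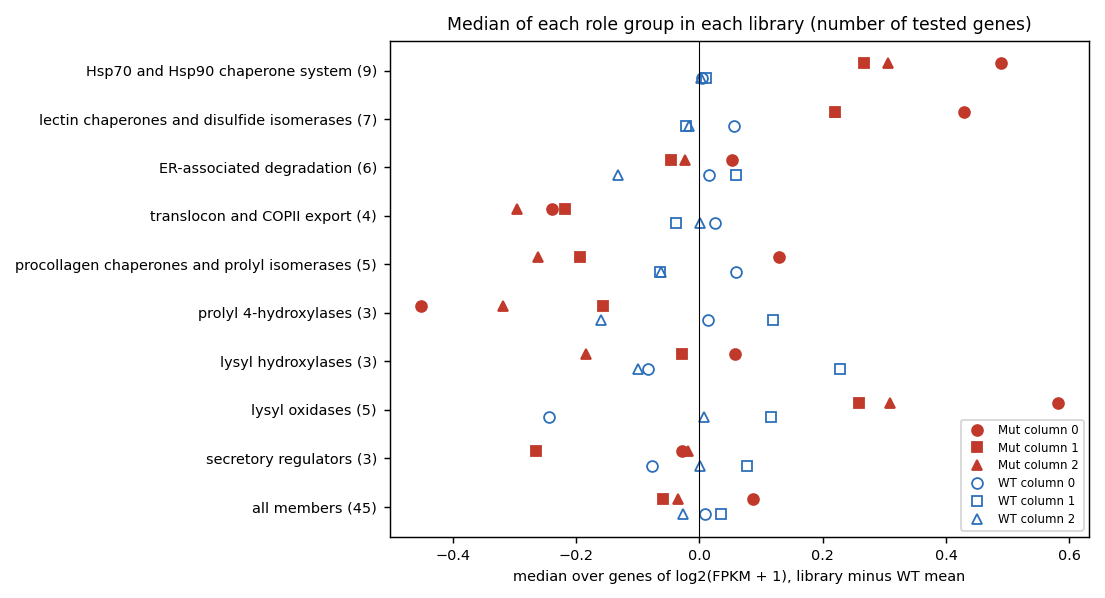
Median over the tested members of each role group of log2(FPKM + 1), library minus wild-type mean, for 3 mutant (filled red) and 3 wild-type (open blue) libraries. For the Hsp70 and Hsp90 system the mutant medians were 0.49, 0.27 and 0.31 in columns 0, 1 and 2, and for procollagen chaperones mutant column 0 was at 0.13 while columns 1 and 2 were at -0.19 and -0.26.

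Other genes of the same pathways were examined as lists, leaving out the members. Of 97 tested genes over 6 lists 1 rose, 3 fell and 93 did not pass, 1.03% and 3.09% of them, beside 3.48% and 2.59% of all genes. Their groups did not overlap with the mutant higher for 7 genes (7.22%, beside 16.3% of all genes) and with the mutant lower for 33 genes (34.0%, beside 15.9% of all genes). Of 18 further COPII and procollagen export genes, 11 (61.1%) had every mutant library below every wild-type library, and 2 (11.1%), Mcfd2 and Ctage5, had every mutant library above. None of the 18 passed in limma. An unadjusted p under 0.05 was reached by 7 with the mutant lower and by Mcfd2 with it higher, beside 24.7% of all genes in either direction. The median log2 fold change of the 18 was -0.20. The smallest p among them was that of Lman1, the cargo receptor ERGIC-53, which measured 199, 207 and 193 FPKM in mutant columns 0, 1 and 2 and 265, 245 and 245 FPKM in wild-type columns 0, 1 and 2 (limma adjusted p = 0.059). In 18 further translocation and glycosylation genes none passed, 4 had an unadjusted limma p under 0.05, the median was -0.11, and Ssr1, a subunit of the translocon-associated complex, had the smallest p (log2 fold change -0.26, limma adjusted p = 0.063).

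All 4 of these calls were procollagen modifying or processing genes, among 17 tested (5.88% higher and 17.6% lower, beside 3.48% and 2.59% of all genes). P3h2, a prolyl 3-hydroxylase, rose to 52.5, 55.3 and 59.1 FPKM in mutant columns 0, 1 and 2, against 28.0, 35.3 and 28.2 FPKM in wild-type columns 0, 1 and 2 (log2 fold change 0.85, SE 0.11, limma adjusted p = 0.018). Within its family P3h2 held 22.8 ± 3.79% of the summed level in mutant and 12.5 ± 1.30% in wild-type libraries. Bmp1, the proteinase that removes the C-propeptide of procollagen, fell to 22.5, 23.3 and 23.7 FPKM in mutant libraries, against 29.5, 31.7 and 29.5 FPKM in wild-type libraries (log2 fold change -0.37, limma adjusted p = 0.032). Its enhancer Pcolce fell as well, to 31.5, 47.2 and 37.6 FPKM in mutant libraries, against 64.2, 73.1 and 66.3 FPKM in wild-type libraries (log2 fold change -0.81, limma adjusted p = 0.042). Serpinf1, a collagen-binding serpin whose loss causes a form of brittle bone disease in humans, fell to 87.4, 103 and 124 FPKM in mutant libraries, against 239.9, 246 and 198 FPKM in wild-type libraries (log2 fold change -1.12, limma adjusted p = 0.022). For all 4 the groups did not overlap. With 1 library left out at a time, 0 or 1 of these genes still rose and 0 or 1 still fell. Up to 2 pathway genes fell in such a fit, but then only 1 of them was among these.

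Of 21 further ER folding genes and 13 further degradation genes none passed in limma. An unadjusted p under 0.05 was reached by 4 and 2 of them, beside 24.7% of all genes in either direction. Their smallest p-values belonged to Fkbp9, a prolyl isomerase of the ER (log2 fold change -0.39, limma adjusted p = 0.082), and to Erlec1, a lectin of the degradation pathway (log2 fold change -0.40, limma adjusted p = 0.060). Among 10 tested sensors and transcription factors of the unfolded protein response none passed in limma, 2 had an unadjusted p under 0.05, and the smallest p was that of Mbtps2, the partner protease of Mbtps1 (log2 fold change -0.30, limma adjusted p = 0.13). Xbp1 averaged 105 ± 6.92 FPKM in mutant and 103 ± 5.84 FPKM in wild-type libraries, and Atf4 353 ± 48.9 FPKM in mutant and 274 ± 14.1 FPKM in wild-type libraries (limma adjusted p = 0.15). Client collagens did not pass either, with 1 unadjusted limma p under 0.05 (Col9a2). The log2 fold changes of the 4 measured cartilage chains Col9a2, Col9a3, Col11a2 and Col27a1 were -0.51, -0.41, -0.44 and -0.07, all with overlapping groups. The 5 fibroblast and bone chains overlapped as well. Their log2 fold changes were -1.35 for Col1a1, -0.18 for Col1a2, 0.62 for Col3a1, -0.41 for Col5a1 and 0.28 for Col5a2.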

How the data were processed

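Strand-specific libraries depleted of ribosomal RNA were read as single 50-base ends and analysed in CLC Genomics Workbench, per the labels' protocols. Per the submitters' processing notes, STAR, Cufflinks and Cuffdiff were used with mm10. Tool versions, read filters and the strand setting of counting: not given in the sources used here. In 1 table, the authors deposited FPKM per gene and library, so read depth behind each value is unknown. Of its 6 library columns 4 were matched to a sample and 2 to a group alone, because labels and columns number them differently. No column lacked a sample of the series.

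FPKM values were tested as log2(FPKM + 1) with limma 3.58.1 in R 4.3.3 (moderated, 3 mutant against 3 wild-type libraries, no covariate). A gene entered the test when its 6 libraries averaged 1 FPKM or more, and p-values were adjusted by Benjamini-Hochberg over the 14012 such genes. The procedure was tested on simulated data. An exact permutation test of 3 against 3 cannot go below p = 0.1. Of the gene IDs 99.4% matched GENCODE on mm10, which gave coordinates. Promoter windows came from RefSeq (GRCm38.p6).

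The members and lists were chosen with earlier results of these data known. Values in each library are printed for members that passed and for the most abundant member of each role group, and pathway genes are named when they passed or had the smallest p. Further genes given by library or by mean were chosen after their values were seen. Other pseudocounts, filters, scalings, weights, covariates and fits without 1 library were tried.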

Additional observations from a re-analysis of the deposited data

How the results depend on the processing

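Across the refits of single members 612 kept direction and side of the threshold, 65 kept direction but lost the call, 10 gained one and 30 reversed. Against 4 members that rose, 2 did without the filter on low values, 1 after quantile normalization, 7 with library weights, 2 with the Y-linked covariate and 0 to 2 with 1 library left out. Against 3 that fell, 0 did without the filter, 0 with the covariate and 0 to 0 with 1 library left out. Over all genes, against 487 that rose, 295 did without the filter, 816 with weights, 189 with the covariate and 99 to 377 with 1 library left out. Of the 295 genes 243 were among the 487, and of the 189 only 51 were. Against 363 that fell, 166, 672, 47 and 66 to 289 did in the same settings. Of the 166 genes 140 were among the 363, and of the 47 only 12 were. Of pathway genes, 1 rose in the main comparison, 2 with weights, 0 with the covariate and 0 to 1 with 1 library left out. Against 3 that fell, 9 did after quantile normalization, 9 with weights, 0 with the covariate and 0 to 2 with 1 library left out. The cause of these moves was not tested.

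Same-numbered columns did not deviate together (r of -0.033, -0.042 and -0.023), and differently numbered columns gave r of -0.0062 to 0.042. Whether same-numbered columns were paired is not given in the labels, and r values this weak cannot decide it. With the replicate block 0 members rose and 0 fell, 44 of all genes rose and 16 fell, and 0 pathway genes rose and 0 fell.

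With the covariate, log2 fold changes reversed to -0.082 for Sdf2l1, 0.27 for Pdia4, 0.035 for Pdia5, 0.055 for P4hb, 0.089 for Derl1, 0.10 for Sec61a1, 0.23 for Sec24d, 0.51 for Serpinh1, 0.86 for Fkbp10, 0.59 for Crtap, 0.081 for Ppib, 0.41 for Plod1, 0.080 for Plod2 and 0.28 for Creb3l2. Sel1l reversed to -0.011 after quantile normalization and -0.0076 with weights, and Derl1 to 0.017 with weights. With 1 library left out, values crossed 0 for Sdf2l1 (-0.033 to 0.15), Herpud1 (-0.064 to 0.23), Sel1l (-0.019 to 0.043), Derl1 (-0.085 to 0.017), Crtap (-0.13 to 0.073) and Ppib (-0.068 to 0.027). Unknown depth leaves low values such as those of Bhlha15 without an interval.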
